A study of Mus musculus with 6 samples.

Results

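A group of 10 genes that mark endothelial tip cells was followed in blood endothelial cells of the mouse intestine: Esm1, Kcne3, Fscn1, Lxn, Cotl1, Cxcr4, Unc5b, Prnd, Spry4 and Trp53i11. They were chosen by name, as tip-cell markers outside the larger ligand and receptor families of angiogenesis, with earlier results of these data known. All 10 had a probe set that the array annotation gives to that gene alone, among 22180 genes measured in this way. All 10 lay above a background level of 4.11 on the log2 scale on each array, as 15312 genes did on average over the arrays.

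The endothelial cells came from mice (age not given in the labels) on a mixed C57BL/6 x 129 background, 3 with Apcfl//fl and Villin-CreERT2 (knockout) and 3 with Apcfl//fl, given as WT (control). Mice of both groups were injected with tamoxifen on 5 days, and intestines were collected on day 6. The villin promoter drives the Cre recombinase in intestinal epithelium, so Apc, a brake on Wnt signalling, is removed from epithelial cells and not by design from the endothelium. Cells were sorted as live, CD45-, EpCAM-, gp38- and CD31+, their RNA was amplified, and each biological replicate was hybridised to 1 Affymetrix Mouse Gene 2.0 ST array. Whether a replicate was 1 mouse or a pool is not given in the labels. The comparison asks how these markers differ in endothelium that lies beside epithelium without Apc.

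Tip cells lead a new vessel sprout. They answer VEGF with long filopodia, migrate along guidance cues and stiffen or dissolve the matrix ahead of them, while the stalk cells behind them divide and form the lumen. Notch signalling between neighbours decides which cell leads, and the tip-cell markers were collected from sprouting vessels of the retina, tumours and cultures, so many are also found in endothelium that has been activated by growth factors without sprouting.

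Of the 10 genes, Spry4, an inhibitor of receptor tyrosine kinase signalling that is itself induced by that signalling, rose in the knockout by 1.53-fold. The other 9 did not pass. Trp53i11, Esm1, Cotl1, Fscn1 and Lxn had positive log2 changes from 0.12 to 0.45, and Kcne3, Cxcr4, Unc5b and Prnd had negative ones from -0.51 to -0.13. The count of 1 in 10 stands against 2.57% of all genes called in either direction, 1.10% as higher and 1.47% as lower. A positive change was found for 6 of the 10 and for 46.7% of all genes. Calls are those of limma's moderated test across all 15312 genes, at a Benjamini-Hochberg adjusted p of 0.05, and ± after a change is its standard error. At an unadjusted p of 0.05 there were 5 of the 10, 4 higher and 1 lower, where the shares of all genes were 16.4% in either direction, 7.20% higher and 9.22% lower. Knockout and control values were fully separate for 4 of the 10 (Spry4, Fscn1 and Cotl1 above, Unc5b below), against 22.0% of all genes, 9.78% above and 12.3% below.

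The median change of the 10 was 0.21, against -0.017 over all genes, and the median size of change without regard to sign was 0.38 against 0.15. Averaged over the 10 genes, knockouts 1, 2 and 3 were at log2 values of 8.51, 8.44 and 8.46, and controls 1, 2 and 3 at 8.36, 8.46 and 8.30. Control 2 thus lay above knockout 2, and the groups overlapped for this average. The difference of the group means was 0.096, beside SDs of 0.034 over the knockout and 0.079 over the control arrays (n = 3 each).

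**Figure D1:**
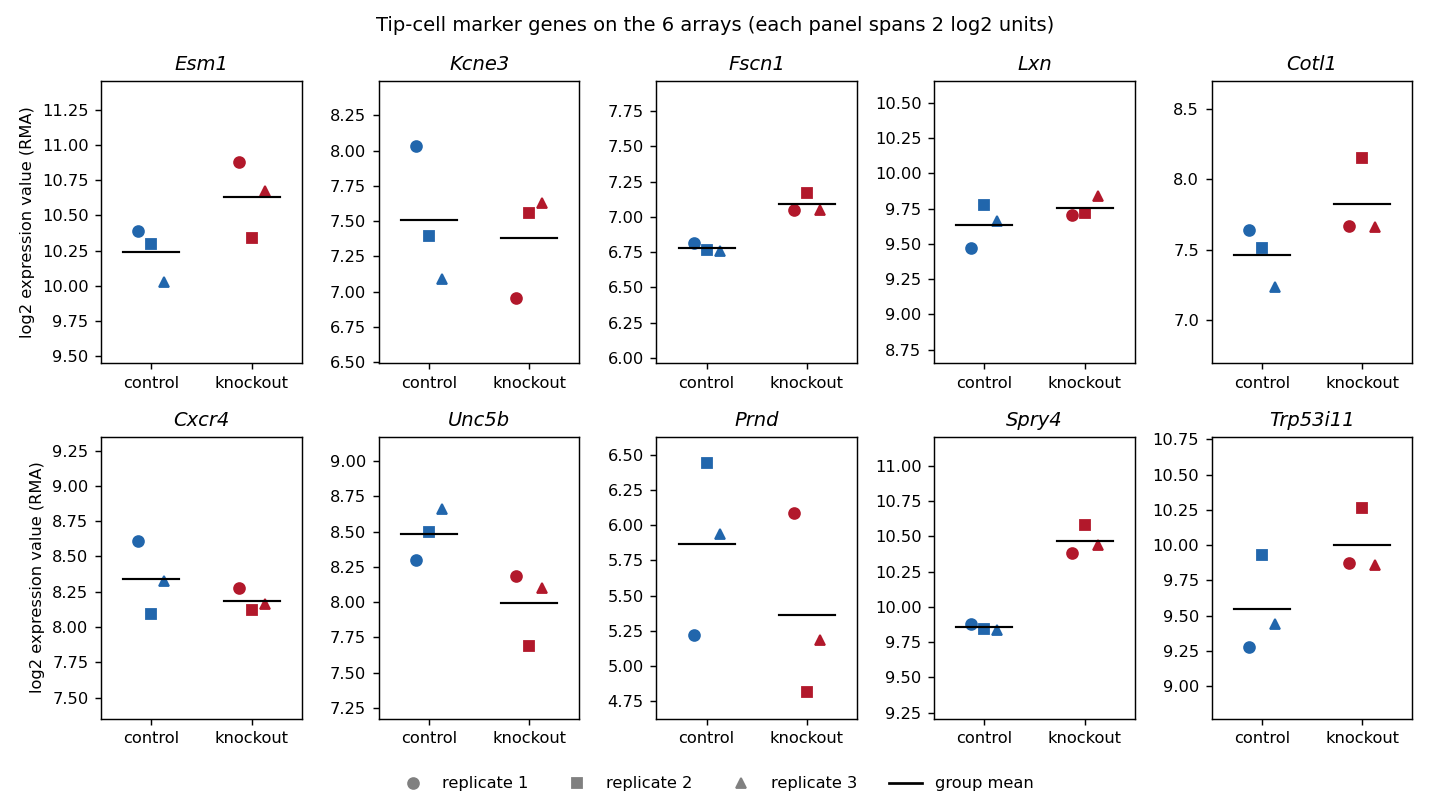
Log2 expression value (RMA) of each tip-cell marker gene on the 3 control arrays (blue) and the 3 knockout arrays (red), with the group mean as a line and the replicate number as the symbol. Each panel spans the same 2 log2 units. Spry4 and Fscn1 are tightly grouped and separate, while Kcne3 and Prnd spread over much of their panels within each group.

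Promoter sequence from RefSeq's promoter table (GRCm38.p6) is shown for Fscn1 and Unc5b, which are among the markers whose groups did not overlap. Each is the 250 bases before the annotated start, 5′ to 3′ on the strand of the gene. Capitals mark matches on either strand to 4 short motifs, chosen after the windows were seen: CCGGAA, a core bound by ETS factors, TGANTCA, bound by AP-1, TGACGTCA, the cyclic AMP response element, and TATAAA, the TATA box.
Fscn1 (chr5:142960105-142960354, plus strand): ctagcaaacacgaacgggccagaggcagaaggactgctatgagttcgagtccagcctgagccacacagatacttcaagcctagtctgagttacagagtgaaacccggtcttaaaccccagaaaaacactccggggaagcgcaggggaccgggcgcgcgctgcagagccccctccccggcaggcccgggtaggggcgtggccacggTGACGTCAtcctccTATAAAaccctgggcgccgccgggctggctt
Unc5b (chr10:60831582-60831831, minus strand): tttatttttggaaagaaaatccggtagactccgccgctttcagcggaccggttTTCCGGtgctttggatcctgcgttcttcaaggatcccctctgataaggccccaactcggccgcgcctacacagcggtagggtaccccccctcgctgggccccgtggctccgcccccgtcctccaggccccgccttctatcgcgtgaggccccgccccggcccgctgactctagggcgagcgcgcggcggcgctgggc

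In the Fscn1 window a cyclic AMP response element begins at base -45 and a TATA box at base -31, counted back from the start. Among 32851 promoter windows of this length in the table, 1.55% held TGACGTCA and 12.4% held TATAAA. The Unc5b window held the ETS core, as its reverse complement at base -197, which 3952 of all windows held, and none of the other 3 motifs. These are matches of letters and say nothing of what bound there.

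Spry4 was the marker that separated the groups most clearly. Its log2 values were 10.38, 10.58 and 10.44 in knockouts 1, 2 and 3 and 9.88, 9.85 and 9.84 in controls 1, 2 and 3. The 3 controls lay within 0.043 of each other, and every knockout array lay above them. The change was 0.61 ± 0.070 (95% confidence interval 0.46 to 0.77, adjusted p = 0.00477 in limma), the 34th smallest p among all genes tested. It ranged from 0.56 to 0.66 with each array left out in turn, and adjusted p-values from limma then lay between 0.00569 and 0.0303. Controls 2 and 3 held more epithelial RNA, and when they were left out, a choice made with the data in view, the change was 0.59 ± 0.11 and did not pass (adjusted p = 0.103 in limma, with 0.340% of all genes called there). With 1 control array the spread in that fit comes from the knockout arrays alone, and the control is assumed to vary as they do. Control 1 still differed from the knockouts in epithelial RNA. The mean of 15 enterocyte markers was 6.96 in control 1 and 5.17 to 5.58 on the knockout arrays.

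Sprouty and Spred proteins both restrain the RAS to ERK cascade, and limma called none of the relatives of Spry4 measured here. Spry2 was at 6.95, 7.54 and 7.48 in the knockout and 7.69, 7.92 and 7.65 in the control, lower on every knockout array than on any control array, with a change of -0.43 ± 0.17 (adjusted p = 0.236 in limma). Spry1 was at 0.22 ± 0.13 with overlapping groups, and Spry3 was not above background in either group. Spred3, at 6.60, 6.69 and 7.16 against 6.14, 6.02 and 5.98, had the largest positive change of this list (0.77 ± 0.17) and just missed the threshold (adjusted p = 0.0508 in limma). Spred1 and Spred2 were at 0.18 ± 0.13 and 0.23 ± 0.16.

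Genes that ERK activity switches on were mixed as well. Of 14 measured members of the list of Sprouty relatives and ERK-induced genes, 0 rose, 1 fell and 13 did not pass in limma. There were 5 at an unadjusted p of 0.05 (1 higher, 4 lower) and a median change of 0.080. The one that fell was Egr1, an immediate early transcription factor, with log2 values of 11.62, 11.71 and 11.72 in the knockout against 12.24, 11.94 and 11.99 in the control (-0.37 ± 0.076, adjusted p = 0.0406 in limma). Ier3 and Phlda1, also early response genes, lay lower on all 3 knockout arrays than on any control, at -0.39 ± 0.12 and -0.39 ± 0.12 (adjusted p of 0.126 and 0.156 in limma). Dusp6, the phosphatase that feeds back on ERK, was at 0.10 ± 0.068, and the ETS factor genes Etv4 and Etv5 were at 0.050 ± 0.15 and 0.058 ± 0.17.

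**Figure D2:**
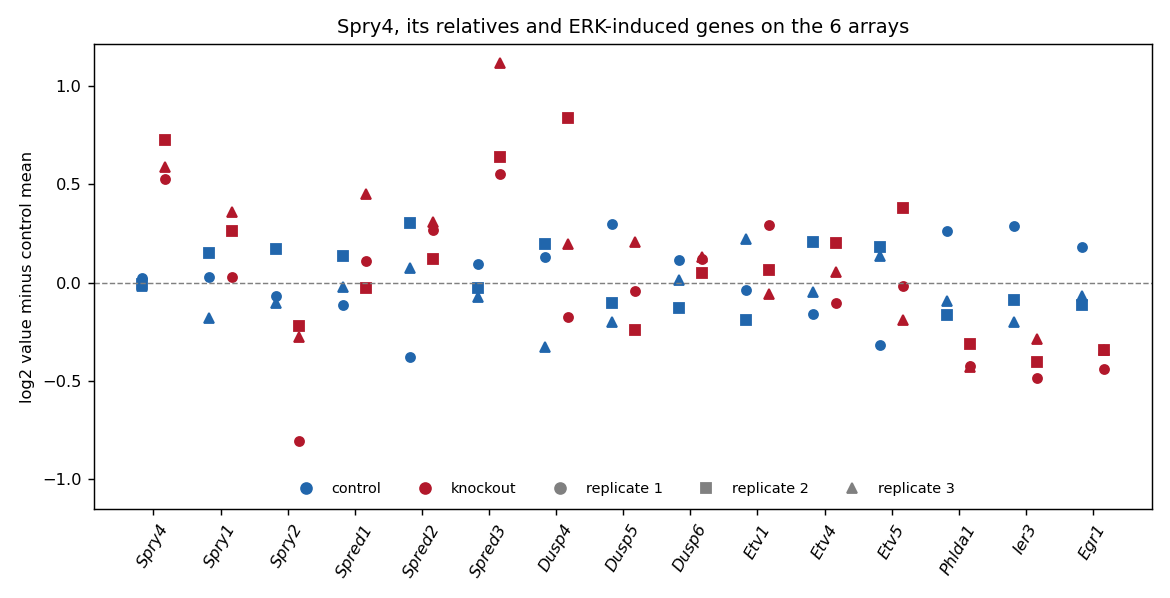
Log2 value minus the gene's control mean for Spry4, its Sprouty and Spred relatives and ERK-induced genes, on the control (blue) and knockout (red) arrays, with symbols for replicate numbers. Spry4 and Spred3 lie above their controls on all 3 knockout arrays, and Spry2, Phlda1, Ier3 and Egr1 lie below them.

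Fscn1 and Cotl1 act on the actin cytoskeleton. Fscn1 encodes fascin, which bundles actin filaments in filopodia. It was at 7.05, 7.17 and 7.05 in knockouts 1, 2 and 3 and at 6.82, 6.77 and 6.76 in the controls. The groups did not overlap, and the controls lay within 0.057 of each other, but the change of 0.31 ± 0.11 did not pass (95% confidence interval 0.057 to 0.56, adjusted p = 0.203 in limma). With single arrays left out it stayed between 0.27 and 0.33.

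Cotl1 encodes coactosin-like protein, which binds filamentous actin and is abundant in leukocytes as well. Its log2 values were 7.67, 8.15 and 7.66 in the knockout and 7.64, 7.51 and 7.24 in the control. Knockout 2 stood 0.69 above the control mean, while knockouts 1 and 3 were only just above control 1. The change was 0.36 ± 0.16 (95% confidence interval -0.0068 to 0.74, adjusted p = 0.315 in limma) and fell to 0.20 without knockout 2. The mean of 11 macrophage and dendritic cell markers lay between 6.06 and 6.43 on the knockout arrays and between 5.86 and 6.16 on the controls, where limma called 0 of 11 and 2 reached an unadjusted p of 0.05. The part of such cells in the values of Cotl1 was not tested.

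Of 28 other genes of filopodia and cortical actin measured, 1 rose, 0 fell and 27 did not pass, with 6 at an unadjusted p of 0.05 (3 higher, 3 lower) and a median change of 0.049. Msn, which encodes moesin, a linker of actin to the membrane, rose from 10.94, 10.92 and 10.92 in the controls to 11.33, 11.21 and 11.29 in the knockouts (0.35 ± 0.054, adjusted p = 0.0142 in limma).

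Cxcr4 and Unc5b are receptors for guidance cues. Cxcr4 binds the chemokine CXCL12. It was at 8.28, 8.12 and 8.16 in the knockout and at 8.61, 8.09 and 8.33 in the control, so the knockout values lay inside the control range. The change was -0.16 ± 0.13 (95% confidence interval -0.46 to 0.15, adjusted p = 0.626 in limma), and without control 1, its highest array, it was -0.023. The gene of its ligand, Cxcl12, fell, with log2 values of 11.22, 10.96 and 11.24 in the knockout against 11.52, 11.76 and 11.69 in the control (-0.51 ± 0.089, adjusted p = 0.0237 in limma). Ackr3, the scavenging receptor for the same ligand, was at 0.0045 ± 0.084.

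Unc5b encodes a netrin receptor that restrains filopodia and sprouting. It ran against the tip-cell label, at 8.19, 7.69 and 8.10 in knockouts 1, 2 and 3 against 8.30, 8.50 and 8.66 in controls 1, 2 and 3. Every knockout array lay below every control, with knockout 1 and control 1 only 0.11 apart. The change of -0.49 ± 0.15 did not pass (95% confidence interval -0.83 to -0.15, adjusted p = 0.137 in limma), and it was -0.34 without knockout 2 and -0.31 with control 1 as the only control. Between the groups, mural cell markers moved on average the same way as Unc5b and Cxcl12, and 6 of 12 fell and 0 rose. Their mean lay between 7.72 and 8.06 on the knockout arrays against 8.41 to 8.79 on the controls. Knockout values were separate from the controls for 10 of them below and 1 above, Abcc9 (0.49 ± 0.17, adjusted p = 0.179 in limma). Within the controls the order differed. Control 1 had the highest mural mean, 8.79 against 8.41 and 8.54 in controls 2 and 3, but the lowest values of Unc5b and Cxcl12. The part of mural RNA in the values of Unc5b and Cxcl12 was not tested. In bulk samples, fewer cells of a type and less RNA per cell cannot be told apart.

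None of the other genes in a list of the netrin axis passed. Besides netrins and their receptors, this list held Flrt2, Flrt3, Rgmb and Robo4. Of 11 measured, limma called 0, and 3 had an unadjusted p of 0.05 or less (1 higher, 2 lower), with a median change of -0.20. The smallest p-values were those of Neo1, for the netrin and repulsive guidance receptor neogenin (-0.34 ± 0.11, adjusted p = 0.151 in limma), and Robo4, an endothelial receptor that binds UNC5B (0.20 ± 0.078, adjusted p = 0.231 in limma). Neo1 was lower on every knockout array than on any control, and Robo4 was higher.

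Esm1 and Lxn encode proteins of the extracellular space and of protease control. Esm1, for the secreted proteoglycan endocan, is a widely used tip-cell marker and a VEGF target. Its log2 values were 10.88, 10.34 and 10.67 in knockouts 1, 2 and 3 and 10.39, 10.29 and 10.03 in the controls. Knockouts 1 and 3 lay above all controls, and knockout 2 lay below control 1. The change was 0.39 ± 0.14 (95% confidence interval 0.079 to 0.71, adjusted p = 0.196 in limma). Without knockout 2 it was 0.54 (adjusted p = 0.0755 in limma), and without knockout 1 it was 0.27.

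Lxn encodes latexin, an inhibitor of carboxypeptidases A. It was at 9.70, 9.72 and 9.84 in the knockout and at 9.47, 9.78 and 9.66 in the control, and the groups overlapped. The change of 0.12 ± 0.092 had an interval from -0.092 to 0.32 (adjusted p = 0.590 in limma). In a list of proteoglycans, which like endocan carry glycosaminoglycan chains, and of enzymes that modify such chains (Dse, Chst14 and Ust), limma called 0 of 15, and 5 had an unadjusted p of 0.05 or less (2 higher, 3 lower). Sdc2, for syndecan-2, was at -0.83 ± 0.19 (adjusted p = 0.0608 in limma) and Gpc3, for glypican-3, at -0.54 ± 0.19 (adjusted p = 0.185 in limma). Of latexin's relatives and the carboxypeptidases A, 5 of 7 with a probe set were not above background. The other two, Rarres1 and Cpa1, were at -0.72 ± 0.26 and -0.15 ± 0.13 (adjusted p of 0.212 and 0.631 in limma).

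Kcne3 encodes an ancillary subunit of voltage-gated potassium channels, which in intestinal crypt epithelium pairs with KCNQ1. It was at 6.95, 7.55 and 7.63 in the knockout and at 8.03, 7.40 and 7.09 in the control. The highest and the lowest of the 6 values were control 1 and knockout 1, and the groups overlapped widely. The change was -0.13 ± 0.25 (95% confidence interval -0.70 to 0.45, adjusted p = 0.854 in limma), and its sign turned without knockout 1 (0.085) and without control 1 (0.14). The mean of crypt and general epithelial genes was 5.36 in control 1 and 6.47 and 6.11 in controls 2 and 3, and the part of epithelial RNA in the values of Kcne3 was not tested.

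Kcnq1 was at 7.56, 7.71 and 7.33 in the knockout and 6.90, 7.05 and 6.68 in the control. The groups were separate, and the change of 0.66 ± 0.15 lay just beyond the threshold (adjusted p = 0.0527 in limma). Of the 6 KCNE and KCNQ genes above background, limma called 0, and Kcnq1 alone had an unadjusted p of 0.05 or less. Kcne4 was at -0.19 ± 0.15.

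Prnd encodes doppel, a relative of the prion protein. Its log2 values were 6.08, 4.81 and 5.18 in knockouts 1, 2 and 3 and 5.22, 6.44 and 5.94 in the controls. Both groups spread over more than a log2 unit, 1.27 within the knockout and 1.22 within the control. The change of -0.51 ± 0.37 had an interval from -1.34 to 0.33 (adjusted p = 0.553 in limma), and with control 1 as the only control it was 0.14. Prnd was the only marker of the 10 with another probe set of its own, which lay between 3.50 and 3.93 on the 6 arrays, not above background. Sprn, a further prion relative, was at -0.40 ± 0.19.

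Trp53i11 is named for its induction by p53 and recurs among tip-cell markers of tumour endothelium. It was at 9.88, 10.26 and 9.86 in the knockout and at 9.28, 9.93 and 9.44 in the control. Control 2 lay above knockouts 1 and 3, and the change of 0.45 ± 0.17 did not pass (95% confidence interval 0.068 to 0.83, adjusted p = 0.222 in limma). With single arrays left out it ranged from 0.32 to 0.64. Of 13 measured p53 targets, limma called 0, and 2 had an unadjusted p of 0.05 or less: Aen, a nuclease gene (-0.40 ± 0.13, adjusted p = 0.162 in limma), and Cdkn1a, the cell cycle inhibitor p21 (0.53 ± 0.18, adjusted p = 0.169 in limma).

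**Figure D3:**
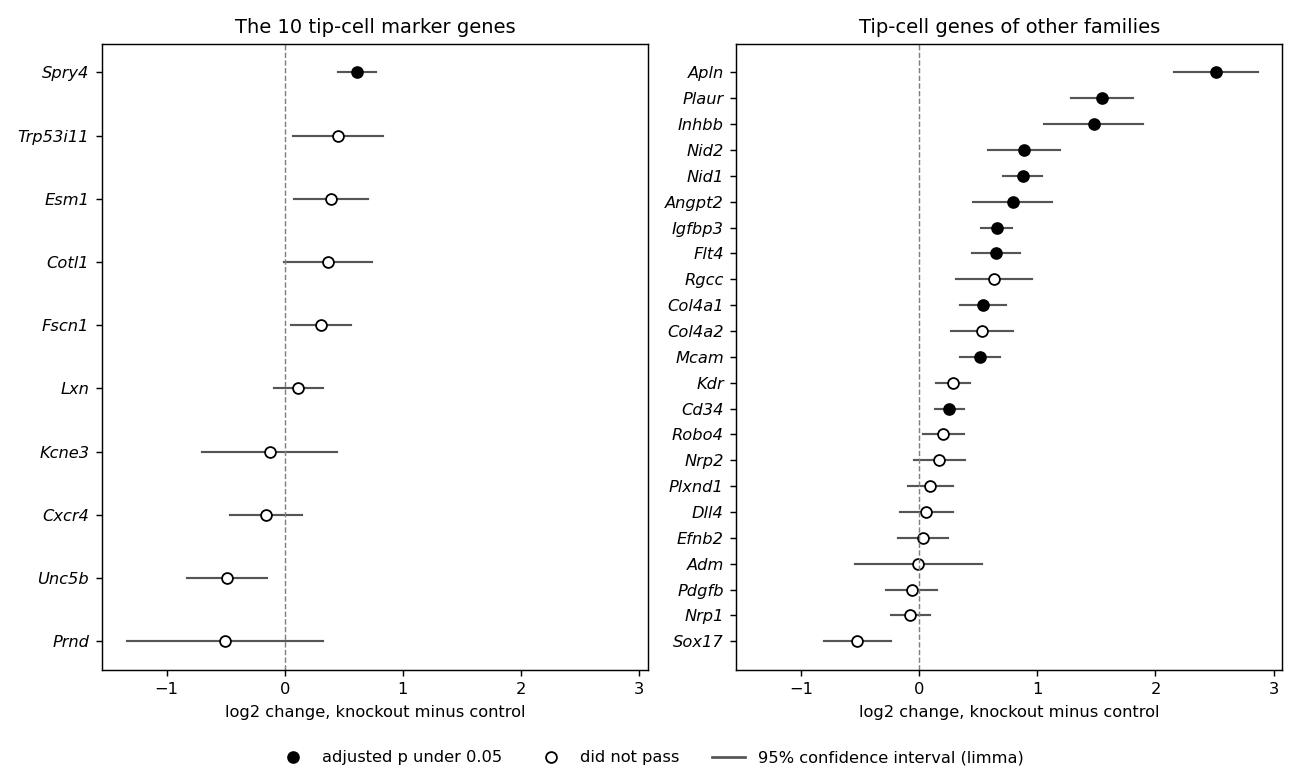
Log2 change, knockout minus control, with its 95% confidence interval from limma, for the 10 tip-cell marker genes (left) and 23 tip-cell genes of other families (right). Filled points had an adjusted p under 0.05: Spry4 at 0.61 on the left, and 11 genes on the right.

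Tip-cell genes of other families, among them growth factors, their receptors and matrix proteins, are set beside these markers as listed with earlier results of these data known. Of 23 measured, 11 rose, 0 fell and 12 did not pass, with a median change of 0.51. There were 16 at an unadjusted p of 0.05 (15 higher, 1 lower), and the groups were separate for 15 above and 1 below. The smallest p-values were those of Apln (2.51 ± 0.16), Plaur (1.55 ± 0.12), Nid1 (0.88 ± 0.073) and Igfbp3 (0.65 ± 0.059), with adjusted p-values from 0.000344 to 0.00189 in limma. Of the 15 stalk-cell and quiescent endothelial genes, 0 rose and 1 fell, Heyl, a Notch target (-0.86 ± 0.17, adjusted p = 0.0334 in limma). Their median change was -0.052, and 6 had an unadjusted p of 0.05 or less (4 higher, 2 lower). Knockout values were separate from the controls for 4 of them above and 3 below. The difference in calls between these lists and the 10 markers was not tested.

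Across the 6 arrays some markers ran closely together or apart, which includes the difference between the groups and is given as a description. Pearson's r was 0.993 for Fscn1 with Spry4 and 0.835 for Fscn1 with Cotl1. It was -0.971 for Cotl1 with Unc5b, -0.926 for Fscn1 with Unc5b and -0.919 for Lxn with Cxcr4. Knockout 2 held the highest value of Fscn1, Cotl1, Spry4 and Trp53i11 and the lowest of Unc5b and Prnd, while knockout 1 held the highest of Esm1 and the lowest of Kcne3.

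**Figure D4:**
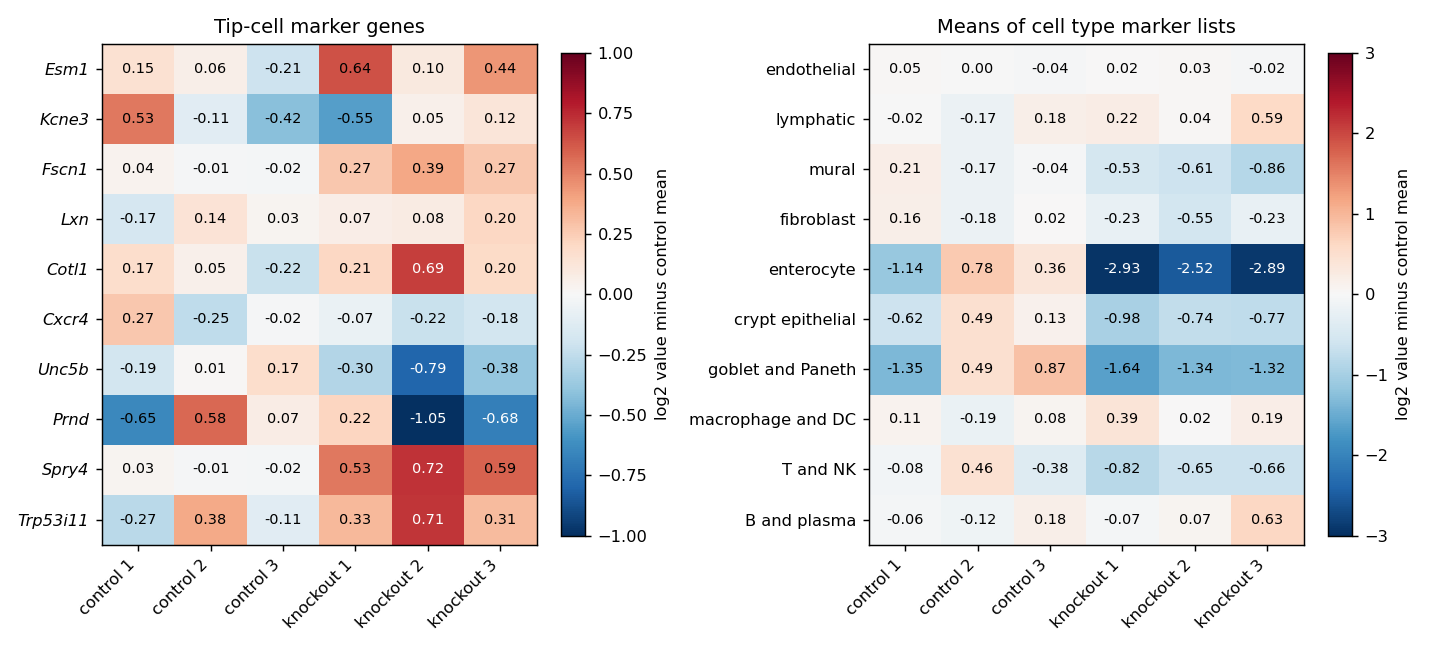
Log2 value minus the control mean on each array for the 10 tip-cell marker genes (left) and for the mean of cell type marker lists (right), with separate colour scales of 1 and 3 log2 units. Although Esm1, Lxn and Trp53i11 overlap the controls, they are positive on the 3 knockout arrays, as are Spry4, Fscn1 and Cotl1. The enterocyte, crypt epithelial, mural, fibroblast, and T and NK lists are below all controls there.

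Array medians lay between 4.77 and 4.81, and pairs of arrays correlated at 0.964 to 0.984 over the genes tested. The mean of 14 endothelial markers lay between 10.74 and 10.79 in the knockout and between 10.72 and 10.81 in the control, and Pecam1, for CD31, was at 11.43 in both groups. Single endothelial markers moved in both directions: Eng, for the TGF-beta coreceptor endoglin, rose (0.26 ± 0.044, adjusted p = 0.0211 in limma), and Cldn5, for a tight junction protein, fell (-1.28 ± 0.19, adjusted p = 0.0137 in limma). An unadjusted p of 0.05 was reached by 7 of the 14 (6 higher, 1 lower), and the groups were separate for 8 (6 above, 2 below). Enterocyte markers averaged 5.17 to 5.58 on the knockout arrays and 6.96, 8.88 and 8.46 in controls 1, 2 and 3, with 13 of 15 lower and 0 higher. Epcam lay at or below 3.87 in the knockouts and control 1, under the background level, and at 7.20 and 6.24 in controls 2 and 3 (-2.01 ± 0.67, adjusted p = 0.172 in limma). Markers of T and NK cells averaged 4.36 to 4.53 in the knockout and 4.80 to 5.64 in the control, where limma called 0 of 8 and 5 reached an unadjusted p of 0.05, all lower, and Ptprc, for CD45, was at means of 4.14 and 4.46. Markers of lymphatic endothelium overlapped between the groups (5.40 to 5.95 and 5.19 to 5.54). Of 6, 2 were higher, Lyve1 and Flt4, the latter also counted among the tip-cell genes of other families. The part of these cells in the marker values was not tested.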

How the data were processed

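Gene expression was measured on 6 one-colour Affymetrix arrays. The authors deposited a table of log2 values per probe set, made with RMA in the oligo package per the submitters' processing notes, a method that corrects background, normalizes quantiles across arrays and summarises probes. Tool versions are not given in the sources used here. Quantile normalization gives every array the same distribution, so changes are relative to all other probe sets.

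The platform annotation gave 23521 of 41345 probe sets a single symbol, 1814 more than 1 and 16010 none. Where a gene had several probe sets, the one with the highest mean was taken. Background was the 90th percentile of the means of 1429 olfactory, vomeronasal and bitter taste receptor genes, and 15312 genes lay above it. The test was two-sided in limma 3.58.1 under R 4.3.3, with eBayes allowing the variance to depend on the mean, and p-values were adjusted by Benjamini-Hochberg over all genes, at a threshold of 0.05. In 10 simulations, the same steps recovered 18% of the genes that had been given a log2 change of 0.5. They recovered 72.8% at a change of 1 and 96% at 2, and the share of false calls was 4.71%. Most changes of 0.5 were thus missed, so not passing does not show that a marker was unchanged.

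The 10 members, the companion gene lists and the cell type markers were chosen with earlier results of these data known. All members are named, and from each companion list the called members, the 4 with the smallest p where over 6 were called, or the 2 with the smallest p where none was. Names beyond this rule (the Sprouty, Spred and ERK-induced genes other than Egr1, Ackr3, and genes of the cell type lists) were added after values were seen. Promoter windows come from RefSeq's table (GRCm38.p6), in which 8 of the 10 genes were matched, and Python 3.11.15 with matplotlib 3.10.9 made the figures. Alternatives covered the filter, normalization, probe set choice, variance model, array weights, a replicate block and each array left out. Arrays have no read depth, and their number limits the precision. The labels call the samples biological replicates and do not name animals.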

Additional observations from a re-analysis of the deposited data

Results flagged for a closer look

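A probe set that the annotation lists for both Prnp, the prion protein gene, and its neighbour Prnd was left out of the gene comparison, and it was higher on all 3 knockout arrays than on any control. It was at 7.44, 7.56 and 7.72 in knockouts 1, 2 and 3 and at 7.27, 7.00 and 7.11 in the controls. In a fit over all 25744 probe sets above background, added after the data were seen, the change was 0.44 ± 0.13 and did not pass (adjusted p = 0.203 in limma, with 0.101% of probe sets called). The probe set of Prnd alone had a change of the opposite sign (-0.51 ± 0.37). Which of the genes gives the shared signal was not tested.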

How the results depend on the processing

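Spry4 passed in 16 of 17 alternatives (adjusted p from 0.00334 to 0.0469 in limma) and missed against control 1 alone. That setting gave 52 changed genes, 0 of the 10 members called by limma, and a sign change of Prnd to 0.14. The replicate block called 2 members, adding Trp53i11 (0.45 ± 0.081, adjusted p = 0.0378). Same-numbered arrays deviated from their group means with correlations of only -0.021 to 0.039. With 3 arrays per group, these values cannot decide whether the number pairs arrays, and the labels do not say. The count of changed genes, 393, was 139 without the variance trend and 91 to 379 with single arrays left out. A separate fit over all 25744 probe sets above background, not among the 17 alternatives, called 26 probe sets. The result of Spry4 in that fit is not given here. Kcne3 ranged from -0.34 to 0.14 with single arrays left out, turning to 0.085 without knockout 1 and to 0.14 without control 1. The causes were not tested. The mean change of the 10 genes ranged from 0.059 to 0.14 over all alternatives. Each lay less than 0.061 from 0.096, where 0.061 is the SD between arrays pooled over both groups. No other member changed its sign or its side of the threshold under any alternative.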

Other observations

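Among 13580 other named genes above background, those with the pattern most like Spry4 over the 6 arrays were Gpr146, an orphan receptor gene (Pearson's r = 0.995), Ppfibp1, for a liprin of cell adhesion sites (r = 0.995), and Apln, for the tip-cell peptide apelin (r = 0.994). Their changes were 0.26 ± 0.085 for Gpr146, 0.50 ± 0.081 for Ppfibp1 and 2.51 ± 0.16 for Apln, and Ppfibp1 and Apln passed (adjusted p of 0.0185 and 0.000344 in limma). For Esm1 they were Pbx3, Chsy1, for a chondroitin synthase, and Phf14, with r from 0.993 to 0.996. None of these was past the threshold (adjusted p from 0.347 to 0.373 in limma). With 6 arrays and this many genes, high values of r are frequent, and they are given as a description.

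Matches to the 4 motifs were also found in other promoter windows of the markers. The Cxcr4 window held TATAAA, on both strands, and 1 of the 2 windows of Kcne3 held TGANTCA at base -37. One of the 2 windows of Prnd held CCGGAA at base -175. The windows of Esm1, Lxn and Trp53i11 held none of the 4.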
